A study of Mus musculus with 5 samples.

Results

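The mitochondrial carrier family, whose genes carry Slc25a symbols, was examined in the hearts of mice with lupus nephritis. Members were all genes whose probe annotation gives a single symbol starting with Slc25a. There were 44 such genes among 18193 on the arrays, covered by 93 probe sets, and each gene is given by whichever of its probe sets was brightest on average. RNA from whole hearts was hybridized to Affymetrix whole-genome mouse arrays, with 3 arrays of untreated female NZB_W mice aged 12 to 15 weeks that had lupus nephritis with moderate kidney injury, and 2 of untreated female NZW mice of matched age with healthy kidneys. NZB_W mice are the F1 cross of NZB with NZW, a spontaneous lupus model, so the NZW parent strain shares one parental genome with them, and strain and kidney disease cannot be told apart in this design. Hearts of both groups were bled and perfused with saline before RNA was taken. Arrays of a group are titled as biological replicates, but no label says whether an array holds 1 animal or several.

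Carriers of this family sit in the inner mitochondrial membrane, with a few in the outer membrane or in peroxisomes, and exchange metabolites between the matrix and the cytosol. In heart muscle they bring ADP and phosphate to ATP synthase and send ATP out, move carnitine esters of fatty acids inward for oxidation, pass reducing equivalents through the malate-aspartate shuttle, and supply iron, glutathione and cofactors. Each protein is built from repeats of a related pair of membrane helices.

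Values are the authors' log2 expression levels, and a difference is the NZB_W mean minus the NZW mean on that scale. The 5 arrays correlated at 0.972 to 0.993 over the genes tested. NZB_W array 3 and NZW array 2 had the lowest 5' minus 3' differences of the beta-actin control probe sets, at -1.31 and -1.19, with the other arrays between -0.89 and -0.88. Of 9 cardiomyocyte genes, 8 were bright on every array, which fits the label heart. The remaining one, the atrial myosin light chain Myl7, read 3.87, 10.24 and 13.01 in NZB_W hearts, against 13.14 and 4.76 in NZW hearts, so this atrial transcript differed widely within both groups.

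Of the 44 members, 38 exceeded the median of their array on at least 2 arrays and were tested together with all other such genes, 11902 in all. None of the 38 passed limma's test after Benjamini-Hochberg adjustment over all genes (threshold 0.05), and the lowest adjusted p among them was 0.741. Across all genes 0.0084% passed (1 gene, not a carrier). At an unadjusted limma p under 0.05 there were 3 members, Slc25a15, Slc25a25 and Slc25a40, or 7.89% of those tested, against 5.55% of all genes. With so few members, that share is close to the background.

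Differences among the members were small and ran both ways. Of the 38, 15 were higher and 23 lower in NZB_W hearts, with a median log2 difference of -0.026, while over all genes 45.5% were higher and the median was -0.014. The median size of the difference, whatever its sign, was 0.097 for members and 0.091 for all genes. Only Slc25a37 and Slc25a15 differed by more than 1.5-fold, or 5.26% of the 38, against 2.57% of all genes. For 24 of the 38 members the 95% interval of the difference lay wholly within 1.5-fold in either direction. That is a smaller share than the 76.3% of all genes.

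**Figure D1:**
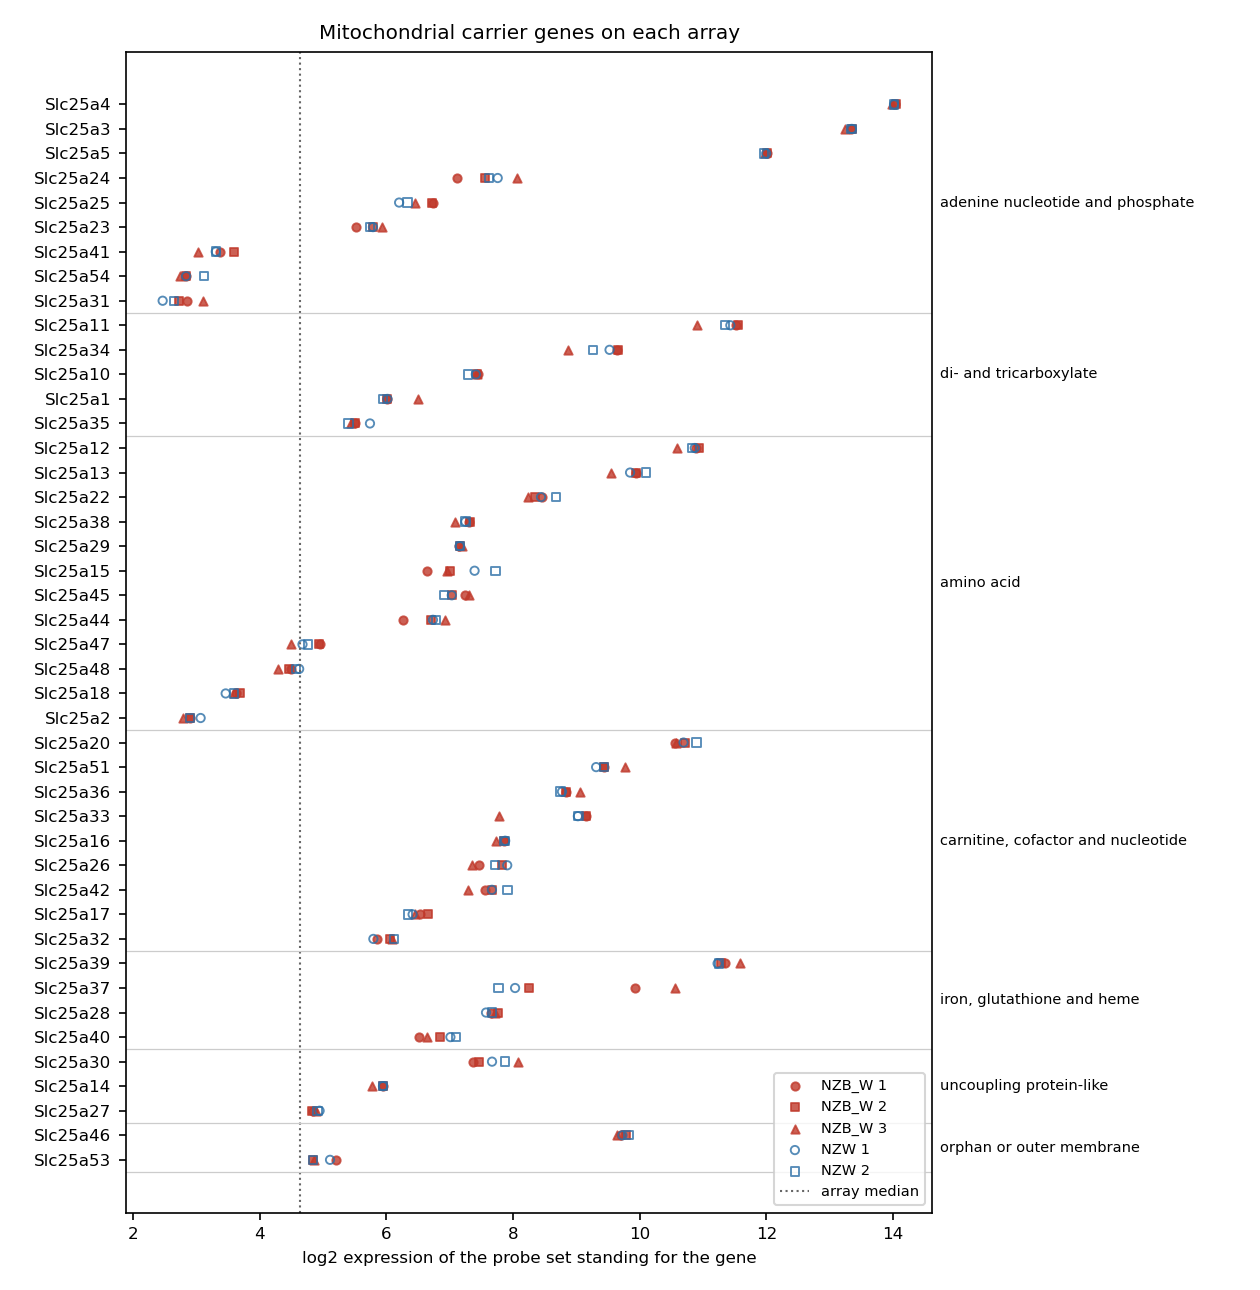
Log2 expression (horizontal axis) of the 44 mitochondrial carrier genes (rows, grouped by substrate class) on each array, with filled red symbols for the 3 NZB_W hearts, open blue symbols for the 2 NZW hearts and a dotted line at the array median. Most rows hold the 5 arrays close together, whereas the Slc25a37 points spread from 7.77 to 10.56 and 6 genes lie left of the median on every array.

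In 9 of the 38 members (23.7%) the groups did not overlap, against 17.4% of all genes. Of these, 6 were higher in NZB_W hearts (7.6% of all genes were) and 3 were lower (9.83% of all genes were). The higher ones were Slc25a10, Slc25a17, Slc25a25, Slc25a36, Slc25a37 and Slc25a39, and the lower ones Slc25a15, Slc25a27 and Slc25a40.

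**Figure D2:**
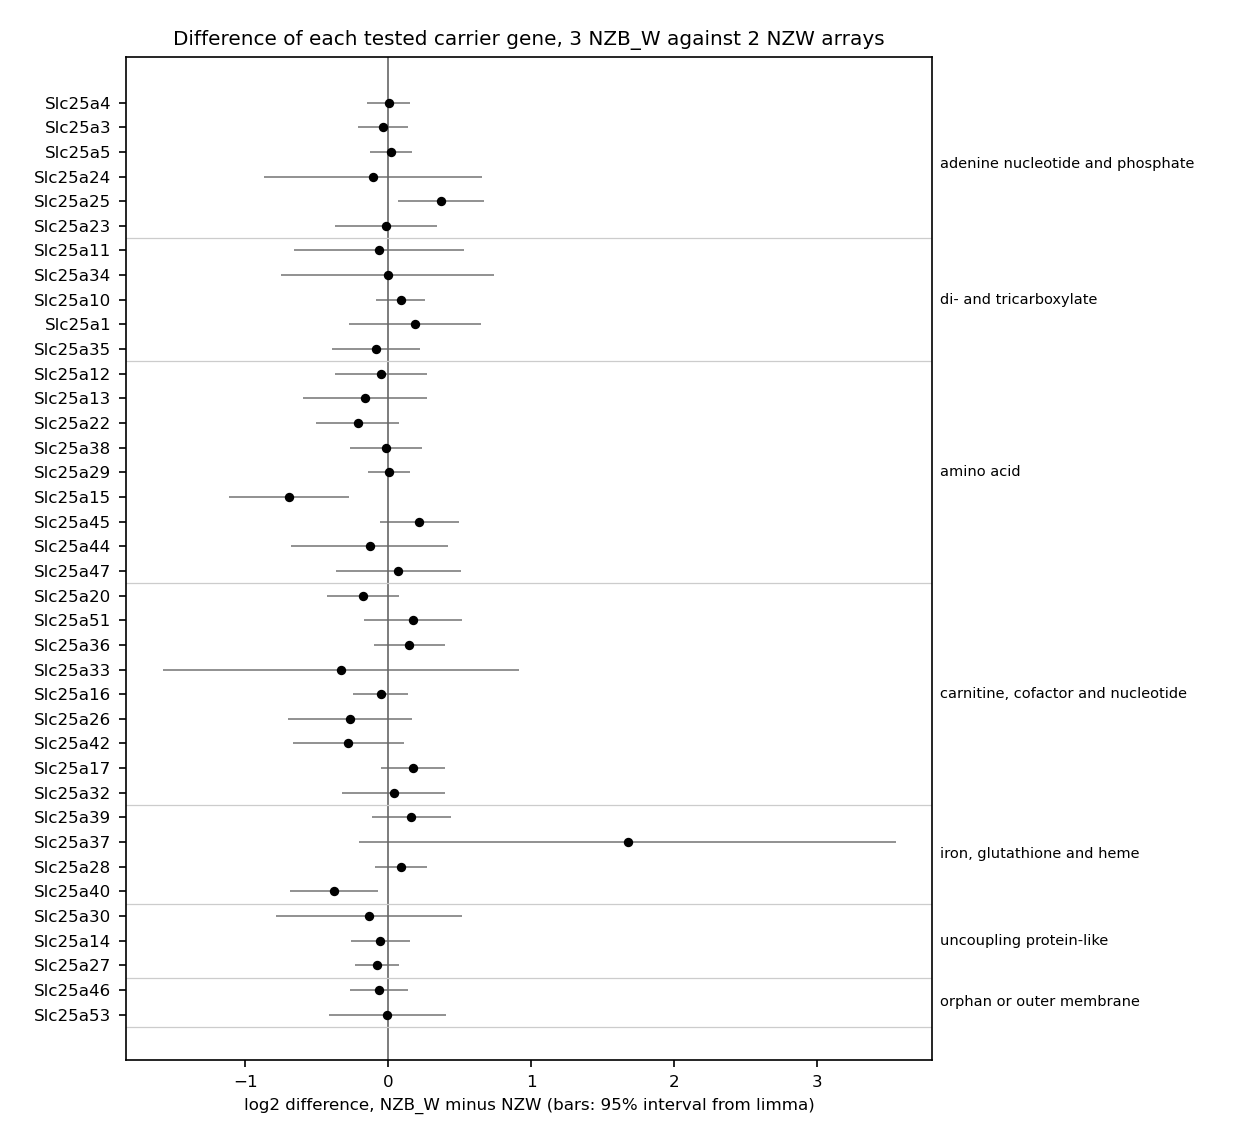
Log2 difference, NZB_W minus NZW, of the 38 tested carrier genes with its 95% interval from limma (3 NZB_W against 2 NZW arrays), grouped by substrate class. The intervals of Slc25a15, Slc25a25 and Slc25a40 lie to one side of 0 before adjustment for multiple tests, and that of Slc25a37 runs from -0.20 to 3.55.

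The carriers of adenine nucleotides and phosphate, which serve ATP export, read almost the same in both groups. Slc25a4, the ADP/ATP exchanger of heart and skeletal muscle known as ANT1, read 14.03, 14.04 and 13.98 in NZB_W hearts, against 14.01 and 14.01 in NZW hearts. Its groups overlapped, with a log2 difference of 0.0055 and a 95% interval from -0.15 to 0.16. The values stand near the top of the arrays' range, whose highest probe sets read 14.24 to 14.33. The phosphate carrier Slc25a3 differed by -0.036 (interval -0.21 to 0.14), and Slc25a5, the ADP/ATP exchanger ANT2, by 0.023 (interval -0.12 to 0.17). Other bright probe sets of Slc25a4 differed by -0.059 to 0.021 and those of Slc25a5 by -0.13 to 0.052. The intervals of these 3 carriers lay within 1.5-fold in either direction.

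The calcium-binding ATP-Mg/phosphate carriers, which adjust the adenine nucleotide pool of the matrix, varied more. Slc25a25, known as SCaMC-2, read 6.73, 6.72 and 6.45 in NZB_W hearts, against 6.20 and 6.33 in NZW hearts. Every NZB_W value lay above both NZW values, 0.37 apart on the log2 scale (SE 0.11), or 1.29-fold, with a limma adjusted p of 0.859. Its other bright probe set differed by 0.07 (SE 0.069). Slc25a24, known as SCaMC-1, read 7.12, 7.56 and 8.06 against 7.76 and 7.62, so the NZB_W hearts spanned the NZW values (difference -0.11, SE 0.29). Slc25a23, known as SCaMC-3, differed by -0.017 (SE 0.14).

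ATP export partners outside the family were level as well. Of 6 tested, 2 were higher, 4 lower and none passed, with a median difference of -0.032. The cytosolic creatine kinase Ckm differed by 0.11 (SE 0.057) and the ATP synthase alpha subunit Atp5a1 by -0.049 (SE 0.065).

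Among carriers of di- and tricarboxylates, 2 of 5 were higher and 3 lower, and the class median was -0.004. Slc25a11, the oxoglutarate/malate carrier of the malate-aspartate shuttle, read 11.51, 11.56 and 10.90 in NZB_W hearts, against 11.43 and 11.34 in NZW hearts. NZB_W array 3 was the lowest of the 5 and NZB_W arrays 1 and 2 the highest, so the difference of -0.064 (SE 0.23) was 0.15 without that array. Slc25a34, an orphan carrier, had the same shape, at 9.64, 9.65 and 8.87 against 9.52 and 9.26. The citrate carrier Slc25a1 differed by 0.19 (SE 0.18) and the orphan Slc25a35 by -0.086 (SE 0.12). The dicarboxylate carrier Slc25a10 differed by 0.087 (SE 0.066) without overlap. The malate-aspartate shuttle enzymes Mdh1, Mdh2, Got1 and Got2 differed by -0.082 to -0.013, all 4 lower and none past the threshold. NZB_W array 3 was the lowest of the 5 arrays in all 4 enzymes. Their median difference was -0.062, and -0.012 without NZB_W array 3. Of 5 tested enzymes around citrate and oxoglutarate, 2 were higher and 3 lower, among them Dlst at -0.095 and Ogdh at 0.083.

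The amino acid carriers held the member with the smallest p. Slc25a15, the ornithine carrier of the urea cycle, read 6.64, 6.996 and 6.95 in NZB_W hearts, against 7.39 and 7.72 in NZW hearts. All 3 NZB_W values lay below both NZW values. The log2 difference was -0.69 (SE 0.16), or 1.62-fold lower in NZB_W, with a 95% interval from -1.11 to -0.27 and a limma adjusted p of 0.741. A second probe set (1420966_at) lay below the array medians at 3.91, 4.03 and 3.79 in NZB_W hearts, against 3.91 and 3.91 in NZW hearts, and so did not show it.

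The aspartate/glutamate carriers, the other membrane step of the malate-aspartate shuttle, were close between groups. Slc25a12, or aralar, the form of muscle and brain, read 10.88, 10.93 and 10.59 in NZB_W hearts, against 10.87 and 10.83 in NZW hearts. NZB_W array 3 was again lowest, and the difference was -0.049 (SE 0.12), or 0.057 without that array. A dimmer aralar probe set (1436440_at) differed by -0.38 (SE 0.18), with groups that overlapped. Slc25a13, or citrin, differed by -0.16 (SE 0.17). The glutamate carrier Slc25a22 read 8.45, 8.35 and 8.24 against 8.44 and 8.68, a difference of -0.21 (SE 0.11) with NZB_W array 1 level with NZW array 1. It was -0.092 without NZW array 2 and -0.33 without NZW array 1.

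Slc25a45, an orphan placed near the basic amino acid carriers by sequence, read 7.24, 7.03 and 7.30 in NZB_W hearts, against 7.03 and 6.91 in NZW hearts (difference 0.22, SE 0.11). NZB_W array 2 and NZW array 1 nearly coincided. Slc25a29, a carrier of basic amino acids, differed by 0.0092 (SE 0.056), and Slc25a44, the carrier of branched-chain amino acids, by -0.13 (SE 0.21). The orphan Slc25a47 differed by 0.07 (SE 0.17). Over the class, 3 of 9 tested members were higher, 6 were lower, and the median was -0.049.

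Carriers of carnitine, cofactors and nucleotides split 4 higher to 5 lower, with a median of -0.053. Slc25a20, the carnitine/acylcarnitine carrier that admits fatty acids for oxidation, read 10.56, 10.72 and 10.57 in NZB_W hearts, against 10.69 and 10.89 in NZW hearts. The groups overlapped between NZB_W array 2 and NZW array 1, and the difference was -0.18 (SE 0.096), with -0.28 (SE 0.21) on its other bright probe set. It was -0.074 without NZW array 2 and -0.28 without NZW array 1. Its partners on the same route were lower in 3 of 4 cases with none passing: the carnitine acyltransferases Cpt2 and Crat differed by -0.41 (SE 0.18) and -0.36 (SE 0.13), both without overlap between groups.

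Slc25a42, a carrier of coenzyme A, read 7.56, 7.67 and 7.29 in NZB_W hearts, against 7.67 and 7.91 in NZW hearts (difference -0.28, SE 0.15). Its difference ran from -0.40 to -0.16 with an array left out, the smallest without NZW array 2 and the next, -0.17, without NZB_W array 3, and was -0.078 with the mean of all probe sets. Slc25a26, the carrier of S-adenosylmethionine, read 7.46, 7.82 and 7.36 against 7.91 and 7.72 (difference -0.27, SE 0.16). Its difference ran from -0.40 without NZB_W array 2 to -0.17 without NZW array 1 or NZB_W array 3, and was -0.097 with array weights. In both genes 1 NZB_W value reached the lower of the NZW values. Slc25a17, which carries coenzyme A and other cofactors across the peroxisome membrane, read 6.53, 6.66 and 6.46 in NZB_W hearts, against 6.41 and 6.34 in NZW hearts, a difference of 0.17 (SE 0.086) without overlap.

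The pyrimidine nucleotide carriers went apart on a single array. Slc25a33 read 9.15, 9.15 and 7.78 in NZB_W hearts, against 9.02 and 9.03 in NZW hearts, so NZB_W arrays 1 and 2 stood above and array 3 far below both NZW hearts. Its SE of 0.475 was among the widest of the family, for a difference of -0.33. Its relative Slc25a36 read 8.84, 8.83 and 9.06 against 8.77 and 8.75, a difference of 0.15 (SE 0.094) without overlap, with 0.092 and 0.16 on its other bright probe sets, where the groups overlapped. It was 0.075 without NZB_W array 3. The NAD carrier Slc25a51 differed by 0.17 (SE 0.13), the folate and FAD carrier Slc25a32 by 0.038 (SE 0.14) and Slc25a16, tied to coenzyme A transport, by -0.053 (SE 0.072).

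The largest difference of the family was in iron transport. Slc25a37, or mitoferrin 1, the iron carrier of erythroid cells, read 9.92, 8.25 and 10.56 in NZB_W hearts, against 8.03 and 7.77 in NZW hearts. NZB_W arrays 1 and 3 stood far above the rest, and NZB_W array 2 only just above both NZW hearts. The difference on the log2 scale was 1.68 with an SE of 0.72 (limma adjusted p = 0.859), or 3.19-fold higher, with group values of 9.58 ± 1.19 (SD, n = 3) and 7.90 ± 0.185 (SD, n = 2). It was 1.18 without NZB_W array 3, 2.34 without NZB_W array 2, 1.05 without NZB_W array 3 and NZW array 2 together, and 0.84 with array weights. A further probe set whose annotation lists Slc25a37 together with another gene was not used.

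The 3 red cell genes that were tested had the same order of arrays. Alas2, the erythroid enzyme that starts heme synthesis, read 9.70, 7.90 and 10.11 in NZB_W hearts, against 7.14 and 6.95 in NZW hearts. Slc4a1, the red cell anion exchanger, read 7.28, 4.87 and 8.33 against 4.30 and 3.93. Hbb-b2, a beta globin, read 9.72, 8.01 and 9.90 against 7.67 and 7.48. In all 3, as in Slc25a37, NZB_W array 3 was highest, followed by NZB_W arrays 1 and 2, NZW array 1 and NZW array 2. That order was chosen after the values were seen. It held in 150 of the 11902 genes tested (1.26%) and, among carriers, also in Slc25a36.

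The erythroid marker list had 6 genes on the arrays, of which the 3 tested were all higher in NZB_W. Slc4a1 passed the brightness filter through NZB_W arrays only, its NZW values lying below their array medians of 4.64 and 4.62. The filter itself thus favoured a higher NZB_W value for Slc4a1. Hba-a1, Hba-a2 and Epb42 lay below the array median on every array and did not move together. Without overlap, Hba-a1 was higher in NZB_W hearts and Hba-a2 lower, at 3.40, 3.52 and 3.52 against 3.53 and 3.74. Epb42 overlapped between groups. The summed level of all 6 erythroid genes, on the log2 scale, ran from 9.13 to 11.24 in NZB_W hearts and from 8.47 to 8.64 in NZW hearts. The part of red cell transcripts in the Slc25a37 difference was not tested. In whole-tissue RNA, more cells of a type and more RNA per cell cannot be told apart. Macrophage markers were also higher in all 11 tested. Itgam among them passed the brightness filter through NZB_W arrays only. Summed macrophage levels were 12.29, 12.22 and 13.02 on NZB_W arrays 1, 2 and 3, against 12.11 and 11.62 on NZW arrays 1 and 2. NZB_W arrays 1 and 2 were thus nearly level for these markers, unlike for Slc25a37. Lyz2, C1qa and C1qb had the order of arrays of Slc25a37, and the other macrophage markers did not. The part of macrophage transcripts was not tested either.

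**Figure D3:**
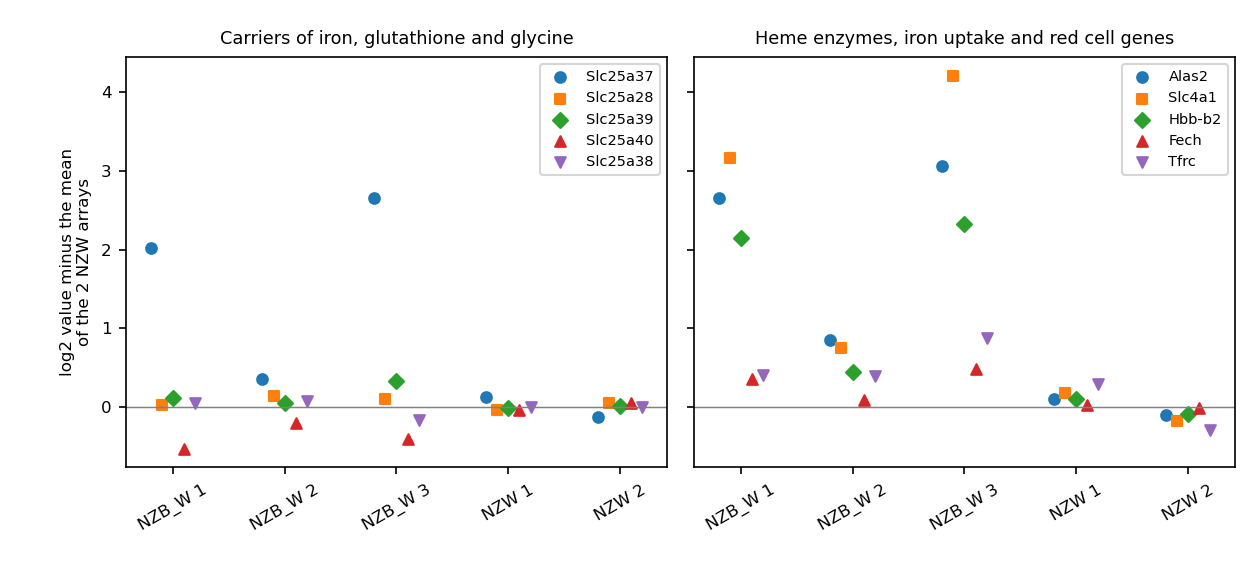
Log2 value minus the mean of the 2 NZW arrays (vertical axis) on each array (horizontal axis), for carriers of iron, glutathione and glycine (left) and for heme, iron uptake and red cell genes (right). Slc25a37, like Alas2, Slc4a1 and Hbb-b2, stands far above 0 on NZB_W arrays 1 and 3 and closer to 0 on NZB_W array 2, while Slc25a28 and Slc25a38 stay near 0 and Slc25a39 is highest on NZB_W array 3.

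The other carriers tied to iron and heme had smaller differences than Slc25a37. Slc25a28, or mitoferrin 2, the iron carrier of non-erythroid cells, differed by 0.087 (SE 0.069), with an interval from -0.095 to 0.27. Slc25a38, the glycine carrier that feeds erythroid heme synthesis, read 7.30, 7.32 and 7.08 in NZB_W hearts, against 7.25 and 7.25 in NZW hearts, a difference of -0.014 (SE 0.097). Among 9 tested genes of mitochondrial iron and heme, 6 were higher and none passed; ferrochelatase Fech, which inserts iron into heme, differed by 0.31 (SE 0.13), and the transferrin receptor Tfrc by 0.56 (SE 0.25), both without overlap. The largest difference of that list was in the heme-degrading enzyme Hmox1 (1.37, SE 0.86). It read 6.05, 5.91 and 8.36 in NZB_W hearts, against 5.84 and 4.96 in NZW hearts. Fech, Tfrc and Hmox1 had the same order of arrays as Slc25a37, and so did the endothelial marker Pecam1. The cysteine desulfurase Nfs1 was lower without overlap, at -0.21 (SE 0.13).

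The glutathione carrier Slc25a39 and its relative Slc25a40 differed in opposite directions. Slc25a40 read 6.52, 6.85 and 6.64 in NZB_W hearts, against 7.01 and 7.10 in NZW hearts. All 3 NZB_W values were below both NZW values, at -0.38 on the log2 scale (SE 0.12), or 1.30-fold lower, with a limma adjusted p of 0.859. Slc25a39 read 11.35, 11.29 and 11.57 on its brightest probe set (1439410_x_at) in NZB_W hearts, against 11.23 and 11.25 in NZW hearts, a difference of 0.16 (SE 0.11) without overlap. That difference was 0.078 without NZB_W array 3, 0.082 with array weights, 0.024 on its only probe set with a plain _at ending, and 0.46 with the mean of all its probe sets.

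The 5 Slc25a39 probe sets, named here after their values were seen, disagreed in size. On 1447783_x_at the gene read 7.44, 7.17 and 7.49 in NZB_W hearts, against 6.01 and 5.76 in NZW hearts, which is 1.48 (SE 0.14) or 2.79-fold higher. On 1456176_x_at it read 9.27, 9.28 and 9.35 against 8.71 and 8.84, a difference of 0.52 (SE 0.074). The remaining ones, 1453111_a_at and 1440118_at, differed by 0.089 (SE 0.079) and 0.024 (SE 0.27), with groups that overlapped. When 22819 bright probe sets were tested separately, including 73 of carriers, the limma adjusted p was 0.214 for 1447783_x_at and 0.419 for 1456176_x_at. In contrast to Slc25a37, all 3 NZB_W arrays of these probe sets stood together. Probe sets ending in _x_at, the brightest of Slc25a39 included, hold probes that can bind other sequences. Whether sequences under these probes differ between the strains was not tested.

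**Figure D4:**
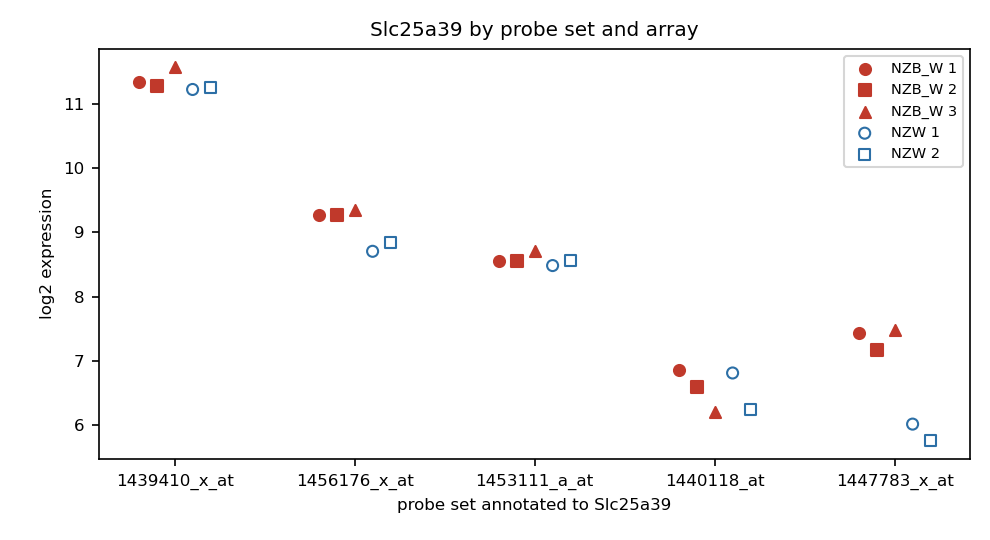
Log2 expression (vertical axis) on each array for the 5 probe sets annotated to Slc25a39 (horizontal axis), with filled red symbols for NZB_W and open blue symbols for NZW hearts. The NZB_W values stand clear of the NZW values on 1447783_x_at (7.17 to 7.49 against 5.76 to 6.01) and on 1456176_x_at, and overlap them on 1453111_a_at and 1440118_at.

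Promoter windows of RefSeq (build GRCm38.p6) were found for 34 of the 44 members, and Slc25a37 was not among these. The 250 bases before the start had a median GC content of 61.0% in the 30 tested members, against 60.0% in the 9565 tested genes with a window, with a median of 14 and 16 CpG dinucleotides. The windows of Slc25a39 and Slc25a40 are shown because these relatives differed in opposite directions; both are rich in CpG, set in capitals, with 35 and 40 of them. Slc25a39 lies at chr11:102407518-102407767 on the minus strand and Slc25a40 at chr5:8422588-8422837 on the plus strand.
Slc25a39: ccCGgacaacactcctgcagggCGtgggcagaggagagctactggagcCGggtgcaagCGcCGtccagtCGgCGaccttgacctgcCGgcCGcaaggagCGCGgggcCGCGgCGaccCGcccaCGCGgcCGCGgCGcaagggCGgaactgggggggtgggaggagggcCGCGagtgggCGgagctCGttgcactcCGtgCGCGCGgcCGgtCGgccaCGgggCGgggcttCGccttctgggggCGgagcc
Slc25a40: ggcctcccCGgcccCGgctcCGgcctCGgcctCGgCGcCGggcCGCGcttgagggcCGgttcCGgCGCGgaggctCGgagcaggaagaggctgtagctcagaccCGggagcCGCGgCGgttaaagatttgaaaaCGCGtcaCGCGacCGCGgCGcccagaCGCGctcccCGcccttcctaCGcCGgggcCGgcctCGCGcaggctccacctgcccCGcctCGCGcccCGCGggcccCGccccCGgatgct
The half-site of estrogen-related receptors, factors of cardiac mitochondrial genes, was searched as AAGGTCA on both strands. It was found in 1 tested member, Slc25a34 (3.33% of 30), against 3.57% of tested genes and 4.7% of all 27025 genes with a window. The Slc25a34 window, at chr4:141623835-141624084 on the minus strand, holds it on the opposite strand, in capitals.
Slc25a34: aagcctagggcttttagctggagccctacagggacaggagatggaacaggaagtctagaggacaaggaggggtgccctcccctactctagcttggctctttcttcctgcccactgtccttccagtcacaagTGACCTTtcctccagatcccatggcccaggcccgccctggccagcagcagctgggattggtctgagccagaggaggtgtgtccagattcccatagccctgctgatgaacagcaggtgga
The TATA letters TATAAA, on either strand, were in 0 of 30 tested members and 8.42% of tested genes.

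The 3 uncoupling protein relatives had differences just below 0, which for 2 of them turned on single arrays. Slc25a30, a relative of UCP5, read 7.36, 7.46 and 8.08 in NZB_W hearts, against 7.67 and 7.87 in NZW hearts, so NZB_W arrays 1 and 2 were lowest and array 3 highest. Its difference of -0.14 (SE 0.25) ran from -0.36 without NZB_W array 3 to -0.00026 without NZB_W array 1, and was -0.049 without NZB_W array 2 and -0.033 without NZW array 2, with -0.17 (SE 0.096) and -0.29 (SE 0.21) on its other bright probe sets. Slc25a14, known as UCP5, read 5.94, 5.94 and 5.78 in NZB_W hearts, against 5.94 and 5.94 in NZW hearts, so NZB_W array 3 alone gave its difference of -0.055 (SE 0.079). Slc25a27, known as UCP4 and best known from brain, differed by -0.076 (SE 0.059) on a probe set not far above the array medians. A dimmer one (1454230_a_at), below the medians, went the other way without overlap. It read 4.26, 4.30 and 4.10 in NZB_W hearts, against 3.79 and 3.99 in NZW hearts. On 1431201_at and 1458119_at, also below the medians, Slc25a27 differed by -0.038 and 0.056 with overlap. Outside the family name, the muscle uncoupling protein Ucp3 read 7.004, 6.15 and 5.51 against 6.46 and 7.07 (difference -0.55, SE 0.49), while the outer membrane relatives Mtch1 and Mtch2 differed by 0.048 and 0.012.

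Slc25a46, an outer membrane protein of mitochondrial dynamics, read 9.71, 9.79 and 9.63 in NZB_W hearts, against 9.72 and 9.82 in NZW hearts, a difference of -0.064 (SE 0.077) that ran from -0.11 without NZW array 1 to -0.015 without NZW array 2, and was -0.026 with NZB_W array 3 left out and -0.10 with NZB_W array 2 left out. The other Slc25a46 probe set (1418134_at), nearly as bright, read 9.57, 9.56 and 9.52 in NZB_W hearts, against 9.61 and 9.71 in NZW hearts. There the difference was -0.11 (SE 0.065), lower in NZB_W without overlap. The orphan Slc25a53 differed by -0.0078 (SE 0.16). The 6 members below the array median on every array were Slc25a2, Slc25a18, Slc25a31, Slc25a41, Slc25a48 and Slc25a54. They read 2.47 to 4.62, and fitted without the brightness filter they differed by -0.18 to 0.33. Slc25a31 is known as the ADP/ATP exchanger of the male germ line. Slc25a21, Slc25a43 and Slc25a52 were not analysed here.

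NZB_W array 3 often lay at an end of the range. It was the lowest of the 5 arrays in 15 of 38 members (39.5%), against 25.4% of all genes, and the highest in 11 (28.9%), against 30.4%. The median member stood at 0.013, 0.028 and -0.056 from its own mean on NZB_W arrays 1, 2 and 3, against 0.0078 and -0.00084 on NZW arrays 1 and 2. Without NZB_W array 3, 20 of 38 members (52.6%) were higher in NZB_W, against 42.3% of all genes, with a median difference of 0.013, against -0.021 over all genes. In the amino acid class the array 3 median was -0.19, and in the iron, glutathione and heme class it was 0.14.

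**Figure D5:**
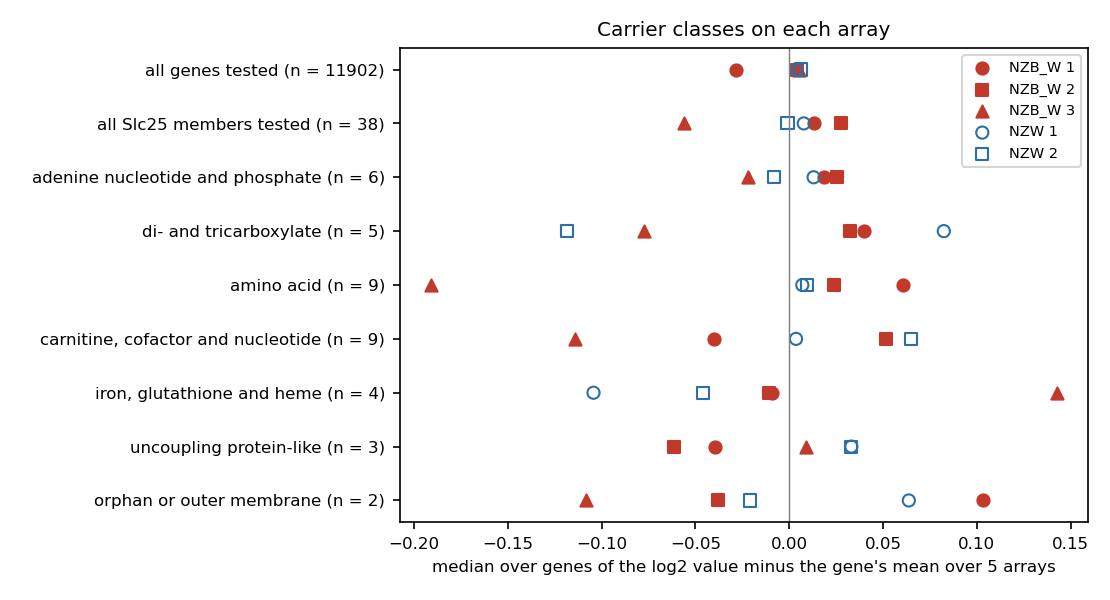
Median over genes of the log2 value minus the gene's mean over the 5 arrays (horizontal axis), for all genes tested, all tested carriers and each substrate class (rows), with filled red symbols for NZB_W and open blue symbols for NZW arrays. NZB_W array 3 lies lowest for the carriers as a whole (-0.056) and for amino acid carriers (-0.19), and highest for the iron, glutathione and heme class (0.14).

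Genes that place carriers in the membrane differed as little as the carriers. Of 13 import genes, 6 were higher and 7 lower with none passing; the receptor Tomm70a, which recognizes carrier precursors, read 9.40, 9.45 and 9.39 in NZB_W hearts, against 9.53 and 9.71 in NZW hearts (difference -0.20, SE 0.077, limma adjusted p = 0.859), and Timm13 differed by -0.12. Of 11 other mitochondrial channels and transporters, 5 were higher and 6 lower, with the inner membrane protein Letm1 at -0.38 (SE 0.12) and the transporter Abcb10 at 0.22 (SE 0.081). Regulators of mitochondrial biogenesis were lower in 8 of 9 cases with a median of -0.15, among them the nuclear receptor Ppara at -0.64 (SE 0.17) and the coactivator Ppargc1a at -0.32 (SE 0.14), and none passed.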

How the data were processed

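Total RNA (6 µg) from hearts was labelled and hybridized per the labels' protocols. The authors deposited 1 log2 expression value per probe set and array; RMA, GCRMA and Partek appear in the submitters' processing notes with no role stated. The background method is thus unknown here, and folds of dim probe sets depend on it. Groups come from the sample titles, and 0 columns belonged to no sample. Of 45101 probe sets, 64 Affymetrix controls were left out. Probe sets with several symbols (932) or with no symbol stood for no gene, and symbols were matched to RefSeq through Entrez identifiers.

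Each gene took its probe set of highest mean, kept when above the array median on at least 2 arrays. These 11902 genes were fitted with limma 3.58.1 in R 4.3.3 (lmFit, eBayes, two-sided, Benjamini-Hochberg over all genes, no covariates). The fit was first run on simulated data with independent noise per gene and no shift shared across an array. That run had to return the mean size of the simulated differences. It does not gauge error rate or power for these arrays. SE and 95% intervals are limma's; SD is over the arrays of a group. Values on every array are given for the member of highest mean in each class, the 12 members of smallest p, and members whose probe sets had opposite signs over 0.5 apart; a few others were added after their values were seen. Carriers and lists were chosen with earlier results of these data known. Figures used matplotlib 3.10.9.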

Additional observations from a re-analysis of the deposited data

How the results depend on the processing

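No carrier passed the threshold under any alternative run: quantile normalization, median centring, 2 brightness filters, the mean of all probe sets, probe sets without _s_at, _x_at or _a_at endings, an intensity trend, array weights, a replicate block, each array left out, NZB_W array 3 and NZW array 2 left out together, a looser threshold of 0.1, and each bright probe set by itself. Among all genes, 1 passed in the reported analysis, 5 with the mean of all probe sets, 2 without those endings, 8 with array weights, 0 with the replicate block, 0 with both arrays left out, 5 at the looser threshold, and 0 to 1 with an array left out. The carriers' median difference of -0.026 ran from -0.057 to 0.013 with an array left out, and was 0.020 with both left out.

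Direction was turned in these cases, all within 0.2 of 0, and the cause was not tested. With array weights Slc25a11 differed by 0.11 and Slc25a12 by 0.045; with the replicate block by 0.15 and 0.057; with both arrays left out by 0.10 and 0.037, and Slc25a46 by 0.023. With an array left out, Slc25a11 ran from -0.18 to 0.15, Slc25a12 from -0.11 to 0.057 and Slc25a4 from -0.0053 to 0.024. Slc25a4 was -0.020 after quantile normalization, -0.0080 after median centring, -0.021 with the mean of all probe sets and -0.059 without those endings. Other bright probe sets turned the sign of Slc25a4 (-0.059, -0.052), Slc25a3 (0.066), Slc25a32 (-0.043), Slc25a29 (-0.078, -0.094, -0.087) and Slc25a5 (-0.019, -0.018, -0.098, -0.0049, -0.13). Slc25a15, Slc25a25, Slc25a37, Slc25a39 and Slc25a40 kept their direction in every alternative that gave them a value, bright probe sets included. Their groups did not overlap, so leaving out arrays, array weights and the replicate block could not turn it. The brightness filters and the intensity trend do not alter a difference. Only the other normalizations and probe set choices could have turned these genes. A dim Slc25a15 probe set differed by 0.0030. Slc25a37 and Slc25a26 had no value without those endings. The replicate numbers of the titles are not said to pair animals, and only 2 are shared. Replicate 3 occurs in NZB_W only, so the block takes NZB_W array 3 out of the difference. Differences with the replicate block therefore equal those without NZB_W array 3 and are no separate check.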
